A study of Mus musculus with 4 samples.

Results

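Sertoli cells are the somatic cells inside the seminiferous tubules that surround the germ cells, whereas the cells studied here were sorted as interstitial cells, which lie between the tubules. The genes described are 10 genes known for their expression in Sertoli cells, namely Fshr, Cldn11, Aard, Tsx, Cst9, Rhox8, Shbg, Mro, Clu and Etd. They were chosen by gene symbol from a table of 22802 gene rows, and each was found in a row of its own. The libraries came from testes of C57BL/6J mice at postnatal day 10 that carried mFLE-Cre and CAG-CAT-EGFP, a reporter in which Cre recombinase switches on EGFP. Cells with EGFP were separated by laminin staining, and 2 libraries were made from laminin-negative and 2 from laminin-positive cells. Both groups are labelled EGFP-positive, yet the text on the design gives the group without laminin only weak EGFP, so EGFP level and laminin staining cannot be told apart. The sources used here give neither the cells in which mFLE-Cre acts nor whether animals were pooled. Separate animals are not stated for the replicates either, so the spread between the 2 libraries of a group may be technical only. Each p-value rests on that spread combined with variance shared across all tested genes.

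Sertoli cells respond to follicle-stimulating hormone through a G-protein-coupled receptor, join one another by tight junctions that form the blood-testis barrier, and secrete carrier proteins and protease inhibitors into the tubule. In the weeks after birth these cells stop dividing and build the barrier. The question addressed was whether the laminin-positive to laminin-negative ratios of these genes are even. If transcripts of a single cell type, present in different amounts in the sorts, were the only source of all 10, each gene would have the same ratio.

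The ratios were not even. Values are FPKM, read fragments scaled to transcript length and library size, which may be compared between genes. Among the 7 genes that averaged at least 1 FPKM over the 4 libraries, the ratio of population means ran from 0.661 for Clu through 2.03 for Aard and 4.23 for Mro to 10.8 for Shbg, 15.6 for Cldn11, 17.6 for Cst9 and 45.4 for Etd. Between the libraries of a population, the pooled SD of log2 FPKM over these 7 genes was 0.296. It describes single libraries, pools genes of unequal spread and is not the error of a range over genes. The highest and lowest ratios differed by 6.10 on the log2 scale. That spread became 2.68 over Clu, Aard and Mro, the 3 genes with at least 1 FPKM in every library, and 3.69 over the 7 genes with a pseudocount of 1. Shbg, Cst9 and Etd were under 1 FPKM in both laminin-negative libraries and entered this group through the laminin-positive ones, so the upper end of the range is partly set by that choice. The abundant pair Clu and Aard was present at 49.0 FPKM or more in every library, while 6 of the 10 genes averaged under 1 FPKM in laminin-negative cells. In bulk samples, fewer cells of a type and less RNA per cell cannot be told apart.

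All 10 loci overlapped a gene of the same symbol in GENCODE M21 on GRCm38, from which the coordinates come. The table itself names no genome build. RefSeq promoter sequences (GRCm38.p6) were found for 6 of the 10 genes, namely Fshr, Cldn11, Shbg, Etd, Tsx and Cst9. The 250 bases before the start are shown for 4 of these, which stand for the receptor, the junction protein, the secreted carrier and the gene with the steepest ratio. Capitals mark every match, on either strand, to the E-box motif spelled CACGTG, the motif of GATA factors spelled AGATAA, the motif of SOX factors spelled AACAAT, the NR5A1 motif spelled AAGGTCA or the TATA-box motif spelled TATAAA. No match overlapped another.
Fshr, chr17:89200676-89200925, minus strand: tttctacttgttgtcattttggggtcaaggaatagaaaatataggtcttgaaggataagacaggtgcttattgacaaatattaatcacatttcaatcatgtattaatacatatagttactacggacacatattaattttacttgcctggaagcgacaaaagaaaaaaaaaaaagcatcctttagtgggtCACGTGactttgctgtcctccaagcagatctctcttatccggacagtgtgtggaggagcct
Cldn11, chr3:31149670-31149919, plus strand: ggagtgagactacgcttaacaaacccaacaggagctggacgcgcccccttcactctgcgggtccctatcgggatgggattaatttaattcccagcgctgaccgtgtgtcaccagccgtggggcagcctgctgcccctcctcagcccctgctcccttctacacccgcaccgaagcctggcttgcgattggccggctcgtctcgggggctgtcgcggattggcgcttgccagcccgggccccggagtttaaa
Shbg, chr11:69617906-69618155, minus strand: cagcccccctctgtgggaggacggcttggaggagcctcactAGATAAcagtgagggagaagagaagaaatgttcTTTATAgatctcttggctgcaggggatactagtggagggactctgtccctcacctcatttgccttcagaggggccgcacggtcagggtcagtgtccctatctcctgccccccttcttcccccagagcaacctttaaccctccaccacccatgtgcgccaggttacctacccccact
Etd, chrX:53434668-53434917, plus strand: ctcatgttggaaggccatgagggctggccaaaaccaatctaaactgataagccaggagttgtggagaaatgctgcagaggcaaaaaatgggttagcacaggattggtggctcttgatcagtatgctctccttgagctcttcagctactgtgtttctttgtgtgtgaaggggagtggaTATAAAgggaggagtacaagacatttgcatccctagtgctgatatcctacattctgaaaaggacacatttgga

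The E-box of Fshr began 61 bases before the start, and 6.02% of 32851 promoter windows of the same length held this palindrome. The GATA match of Shbg began 209 bases before the start, where 9.99% of windows held such a match, and a TATA match on the other strand followed at 176 bases. In Etd the TATA match began 73 bases before the start, and 12.4% of windows held one. Cldn11 held none of the 5 motifs, and neither did the windows of Tsx and Cst9. SOX and NR5A1 matches, seen in 9.42% and 4.08% of windows, were in none of the 6. The Cldn11 window had a GC content of 63.6% with 19 CpG dinucleotides and that of Fshr 36.8% with 4, against medians of 52.4% and 6 over all windows. These matches describe letters in the windows, not binding.

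**Figure D1:**
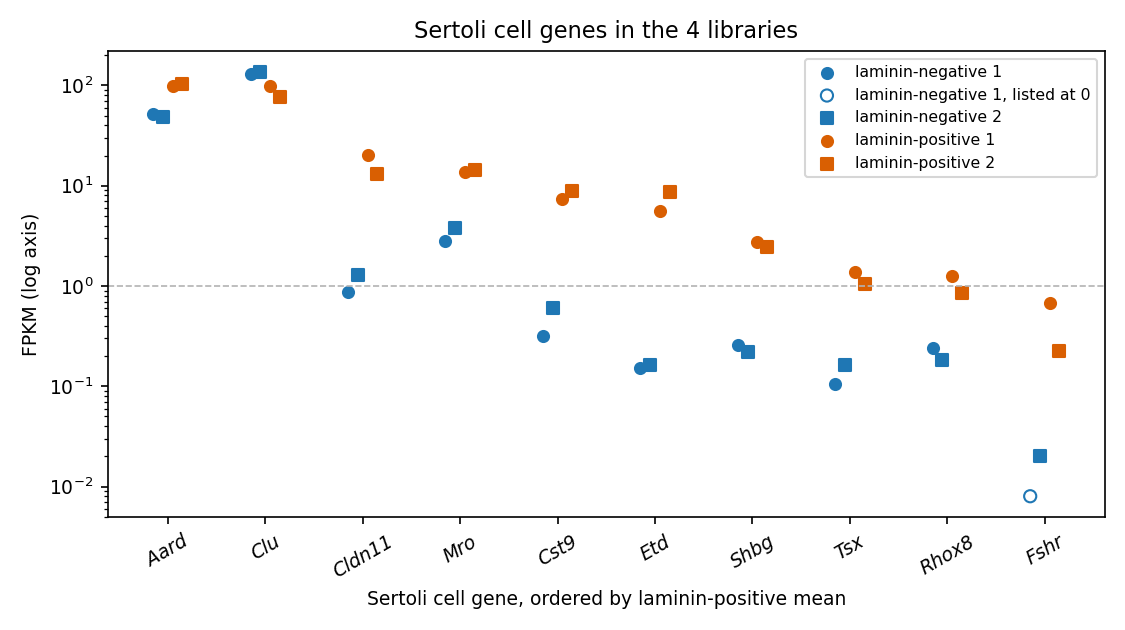
FPKM of the 10 Sertoli cell genes (log axis, dashed line at 1 FPKM) in each of the 4 libraries, ordered by their laminin-positive mean, with the value listed at 0 drawn as an open symbol near the bottom axis. Both laminin-positive libraries lie above both laminin-negative ones for 9 genes and below them for Clu.

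Both laminin-positive libraries lay above both laminin-negative libraries for 9 of the 10 genes and below them for 1, Clu. Of all 12348 tested rows, which do not include Fshr and Rhox8, 39.4% lay above in this way and 37.8% below. Rows with at least 1 FPKM in at least 2 libraries were tested with limma on log2(FPKM + 1), and 8 of the 10 genes passed this filter. In that test 7 were higher and 1 was lower in laminin-positive cells at an adjusted p under 0.05, where 26.6% of all tested rows were called higher, 26.3% lower and 52.9% in either direction. Of the 8, 5 had fewer than 2 laminin-negative libraries at 1 FPKM and reached the filter with the laminin-positive ones. Tsx, Cst9, Shbg and Etd were under 1 FPKM in both laminin-negative libraries, and Cldn11 in 1 of them. Nothing is therefore read from the count, and the limma values of these 5 genes are given as a description. Aard, Mro and Clu were at 1 FPKM or more in every library. Fold differences in FPKM are ratios of population means, and log2 differences are on the log2(FPKM + 1) scale, which understates the change of low genes. With a pseudocount of 0.1 in place of 1, the log2 differences of Tsx, Shbg and Etd became 2.48, 2.99 and 4.78.

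Fshr encodes the receptor for follicle-stimulating hormone, which in the testis is a hallmark of Sertoli cells (chromosome 17, 88984952 to 89200675, minus strand, 10 exons). It was listed at 0 and 0.0200 FPKM in the laminin-negative libraries and at 0.677 and 0.223 FPKM in the laminin-positive libraries. The populations did not overlap, but the laminin-positive libraries differed 3.04-fold from each other. Fshr stayed under the filter and was not tested, and no fold is given against a population that includes a value of 0. Without a filter, its log2 difference was 0.50 (SE 0.149) with a limma adjusted p of 0.0512.

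Genes of signalling downstream of this receptor were measured in both populations. Of 9 genes of FSH receptor signalling, 5 were called higher in laminin-positive cells, 3 lower and 1, Prkaca, neither (median log2 difference 0.24, against 0.01 over all tested rows). The shares called over all tested rows were 26.6% higher and 26.3% lower. The signalling genes serve many receptors. Gnas, the stimulatory G protein subunit, fell from 2042 ± 122 (SD, n = 2) to 854.9 ± 1.28 FPKM, and the nuclear receptor gene Nr4a1 rose from 640.1 ± 10.5 to 906 ± 54.2 FPKM. The summed FPKM of the 9 genes, mostly from Gnas and Nr4a1, was 2836 and 2989 in laminin-negative and 2048 and 1972 in laminin-positive libraries.

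Cldn11 encodes claudin-11, the strand-forming protein of Sertoli cell tight junctions (chromosome 3, 31149920 to 31164324, plus strand, 3 exons). It measured 0.872 and 1.28 FPKM in the laminin-negative libraries against 20.5 and 13.0 FPKM in the laminin-positive libraries. The populations lay far apart, although the laminin-positive libraries differed 1.57-fold from each other. The mean rose from 1.07 ± 0.285 to 16.7 ± 5.28 FPKM (limma log2 difference 3.07 with an SE of 0.181, adjusted p = 1.63e-07). As Cldn11 reached the filter with the laminin-positive libraries, its limma values are a description. Without variance shared across genes the limma adjusted p became 0.0535 (6.44e-15 to 0.0535 across all alternatives).

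Of 9 other tight junction genes, 5 were tested, and 4 of these were called higher and 1 lower in laminin-positive cells (median log2 difference 0.77), where 26.6% of all tested rows were called higher and 26.3% lower. Cgn passed the filter through the laminin-positive libraries. Jam2, a junctional adhesion molecule, rose from 4.85 ± 0.163 to 9.32 ± 0.178 FPKM, and the scaffold gene Tjp1 rose from 11.2 ± 0.664 to 15.9 ± 0.00311 FPKM. Cldn3 rose from 1.04 ± 0.132 to 2.57 ± 1.15 FPKM and the cingulin gene Cgn from 0.399 ± 0.117 to 1.62 ± 0.0593 FPKM. F11r, which encodes another junctional adhesion molecule, fell from 23.4 ± 1.85 to 4.66 ± 0.134 FPKM. Occludin (Ocln), a tight junction protein, was under the filter at 0.0107 and 0.0307 against 0.443 and 0.914 FPKM, and Cldn13 was listed at 0 in every library.

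Among the secreted products, Clu and Shbg moved in opposite directions. Clu encodes clusterin, an extracellular chaperone that Sertoli cells secrete in quantity and that many other cells make too (chromosome 14, 65968483 to 65981547, plus strand). Its FPKM was 129 and 136 in the laminin-negative libraries and 98.3 and 77.2 in the laminin-positive libraries. Both laminin-negative values were higher, and the populations lay further apart than the laminin-positive libraries from each other. Clu fell from 133 ± 4.95 to 87.8 ± 14.9 FPKM, and limma gave −0.60 on the log2 scale with an SE of 0.103 (adjusted p = 0.000614). That call was lost without variance shared across genes (limma adjusted p = 0.153, and 1.68e-06 to 0.153 across all alternatives).

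Shbg encodes sex hormone-binding globulin, known in the rodent testis as the androgen-binding protein of Sertoli cells (chromosome 11, 69614804 to 69617905, minus strand, 8 exons). It was at 0.257 and 0.222 FPKM in laminin-negative and 2.76 and 2.43 FPKM in laminin-positive libraries. The replicates lay close together and the populations apart, with a 10.8-fold ratio (limma log2 difference 1.54 with an SE of 0.125, adjusted p = 2.19e-06). Shbg passed the filter only through the laminin-positive libraries, so its limma values are a description.

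Cst9 encodes a secreted protein of the cystatin family, many of which inhibit cysteine proteases (chromosome 2, 148835147 to 148838738, plus strand, 3 exons). It measured 0.316 and 0.601 FPKM in laminin-negative against 7.31 and 8.80 FPKM in laminin-positive libraries. The ratio was 17.6-fold, and limma gave 2.64 on the log2 scale (SE 0.138, adjusted p = 6.45e-08). Cst9 passed the filter only through the laminin-positive libraries, so its limma values are a description. Cst12, another cystatin gene of the same cluster and not among the 10, rose from 1.91 ± 0.967 to 27.5 ± 2.19 FPKM, a 14.4-fold ratio. The laminin-negative libraries differed for both genes, in opposite directions, with Cst12 at 2.60 and 1.23 FPKM.

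Tsx, Rhox8 and Etd lie on the X chromosome, as 3 of the 10 genes. Etd, named for embryonic testis differentiation, had the steepest ratio that could be taken against values above 0 (chromosome X, 53434918 to 53443576, plus strand, 2 exons). It was at 0.153 and 0.162 FPKM in laminin-negative and at 5.63 and 8.67 FPKM in laminin-positive libraries. The laminin-negative libraries nearly coincided, and all laminin-positive values were at least 34.8 times as high. The log2 difference was 2.79 (SE 0.166, limma adjusted p = 1.76e-07). Etd passed the filter only through the laminin-positive libraries, so its limma values are a description.

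Rhox8 encodes a homeobox transcription factor of the reproductive homeobox cluster (chromosome X, 37874778 to 37878944, minus strand, 4 exons). At 0.242 and 0.182 FPKM in laminin-negative and 1.25 and 0.847 FPKM in laminin-positive libraries, it stayed under the filter. Its ratio of 4.95 is the lowest of the 3 X-linked genes and rests on values near or under 1 FPKM. Without a filter its log2 difference was 0.75 (SE 0.112, limma adjusted p = 0.00564). Rhox5, a gene of the same cluster that Sertoli cells also express, was at 0.0907 and 0.0256 against 0.899 and 0.911 FPKM, likewise under the filter.

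Tsx, a testis-specific X-linked gene (chromosome X, 103414467 to 103424580, plus strand, 7 exons), was at 0.106 and 0.164 FPKM in laminin-negative and at 1.39 and 1.04 FPKM in laminin-positive libraries. Its locus overlaps the annotated gene Gm26992 on the same strand, so reads of the shared part cannot be told apart. Tsx passed the filter only through the laminin-positive libraries, so its limma values are a description. The log2 difference was 0.96 (SE 0.138, limma adjusted p = 0.000175), and the adjusted p became 0.0612 without variance shared across genes (1.88e-05 to 0.0612 across all alternatives). No transcript of another gene in GENCODE M21 matched any of the 10 genes at 90% identity over 50% of its length.

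Mro and Aard were higher in laminin-positive cells but were also well above 1 FPKM in laminin-negative cells. Mro, the maestro gene (chromosome 18, 73859385 to 73881333, plus strand), was at 2.81 and 3.79 FPKM in laminin-negative and 13.7 and 14.2 FPKM in laminin-positive libraries. Its log2 difference was 1.81 (SE 0.12, limma adjusted p = 4.34e-07). Aard, which encodes an alanine and arginine rich domain protein, lies on chromosome 15 (52040107 to 52045722, plus strand, 2 exons). It was at 51.8 and 49.0 FPKM in laminin-negative and 99.96 and 104 FPKM in laminin-positive libraries. The replicates differed by far less than the populations, and limma gave 1.01 on the log2 scale (SE 0.0722, adjusted p = 7.71e-07).

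**Figure D2:**
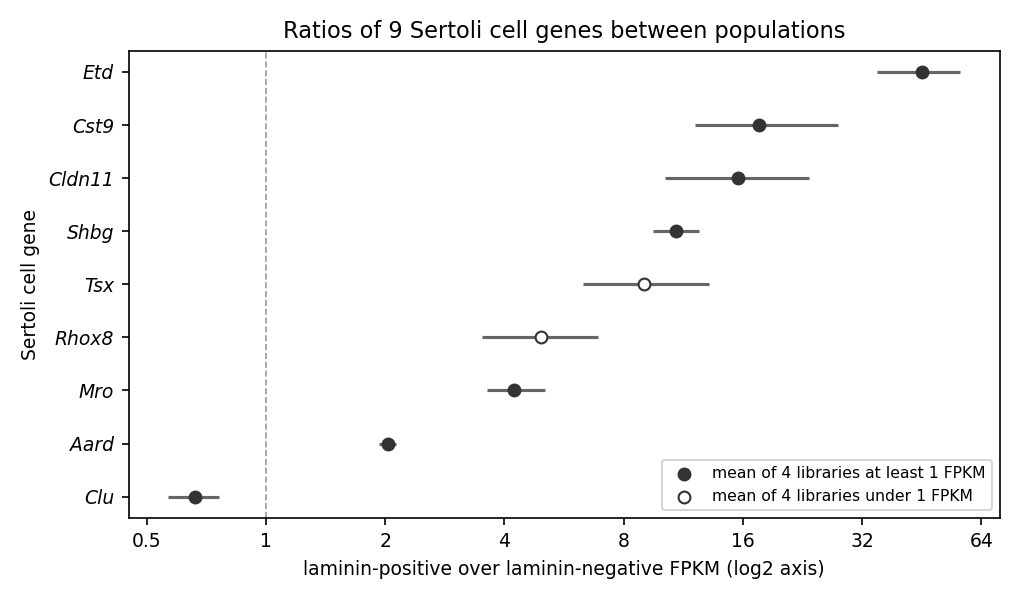
Ratio of laminin-positive to laminin-negative FPKM (log2 axis) for the 9 Sertoli cell genes above 0 in every library, as the ratio of means (points) with the lowest and highest ratio of any laminin-positive to any laminin-negative library (lines). Clu, Aard and Etd stand apart from their neighbours, while the lines from Mro to Cst9 each overlap the next.

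The order of the ratios was compared with the spread between libraries. The ratios of any laminin-positive to any laminin-negative library ran from 0.566 to 0.760 for Clu, from 1.93 to 2.13 for Aard and from 3.61 to 5.06 for Mro. They ran from 9.46 to 12.4 for Shbg, from 10.2 to 23.4 for Cldn11, from 12.2 to 27.8 for Cst9 and from 34.8 to 56.6 for Etd. Clu, Aard and Etd were thus separated from the gene next to them in the order. Mro and Rhox8, Rhox8 and Tsx, Tsx and Shbg, Shbg and Cldn11, and Cldn11 and Cst9 were neighbours whose ranges overlapped. Genes that were not neighbours were often separated. The range of Mro lay below those of Tsx, Shbg, Cldn11, Cst9 and Etd. That of Rhox8 lay below those of Shbg, Cldn11, Cst9 and Etd.

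In absolute terms the difference between population means was largest for Aard, at 51.8 FPKM more in laminin-positive cells, and for Clu, at −45.1 FPKM. It was 15.7 FPKM for Cldn11, 10.7 for Mro, 7.60 for Cst9, 6.99 for Etd and 2.36 for Shbg. Tsx, Rhox8 and Fshr differed by 1.08, 0.837 and 0.440 FPKM. Aard and Clu together made up 97.4% and 96.7% of the summed FPKM of the 10 genes in the laminin-negative libraries and 78.9% and 78.7% in the laminin-positive libraries. The other 8 genes summed to 4.76 and 6.41 FPKM in laminin-negative and to 53.1 and 49.2 FPKM in laminin-positive libraries.

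Levels were also set against Cldn11 in the same library, a quantity that no scaling of whole libraries can alter. Clu stood at 148 and 107 FPKM per FPKM of Cldn11 in laminin-negative libraries and at 4.81 and 5.94 in laminin-positive libraries. Aard stood at 59.4 and 38.4 against 4.89 and 8.04, and Mro at 3.23 and 2.97 against 0.668 and 1.10. For these genes the composition relative to Cldn11 differed between the populations by more than between replicates.

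Of the 9 genes other than Cldn11, 5 were lower relative to it in both laminin-positive libraries (Clu, Aard, Mro, Tsx and Rhox8) and 2 were higher (Etd and Fshr). For Fshr, at 0 and 0.0157 against 0.0331 and 0.0172, this rests on a value listed at 0 and a narrow gap. Etd was at 0.175 and 0.127 FPKM per FPKM of Cldn11 in laminin-negative and at 0.275 and 0.667 in laminin-positive libraries. Cst9, at 0.363 and 0.472 against 0.357 and 0.678, and Shbg, at 0.295 and 0.174 against 0.135 and 0.187, overlapped between the populations. These quantities are given as a description, with no test. They restate the ratios above, so the count depends on the steep ratio of Cldn11, 15.6. Of 12072 rows with a mean of at least 1 FPKM, only 1.76% had a ratio of at least 8. Most rows would thus be lower relative to Cldn11, and nothing is read from the count.

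**Figure D3:**
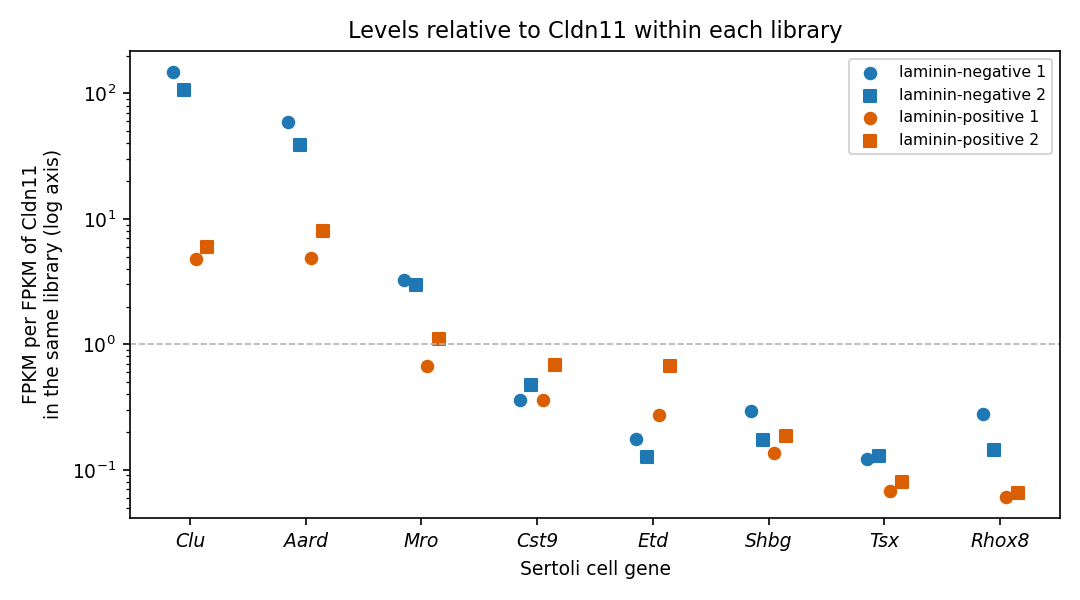
FPKM of 8 Sertoli cell genes per FPKM of Cldn11 in the same library (log axis), for the 2 laminin-negative and 2 laminin-positive libraries. Cst9 and Shbg overlap between the populations, Etd is higher in the laminin-positive libraries, and Clu, Aard, Mro, Tsx and Rhox8 are lower there.

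The replicates of a population did not shift as a block. In the laminin-positive population, replicate 1 was higher than replicate 2 for 6 genes and lower for 4, from 3.04-fold for Fshr and 1.57-fold for Cldn11 down to a ratio of 0.649 for Etd. Replicate 1 of the laminin-negative population was higher for 3 genes and lower for 7. The largest shift there among the genes with a mean of at least 1 FPKM was a ratio of 0.526 for Cst9, from values under 1 FPKM. The number of fragments behind these values was not given, so the counting error of the low genes is not known.

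A wider list of 26 other Sertoli cell genes held calls in both directions. Of the 20 tested, 9 were called higher and 8 lower in laminin-positive cells and 3 were not called, namely Sox9, Sox8 and Gata1. Over all tested rows 26.6% were called higher and 26.3% lower, a similarly even split. The median log2 difference was 0.17, against 0.01 over all tested rows. Summed FPKM of the list was 1487 and 1401 in laminin-negative and 1561 and 1585 in laminin-positive libraries. The ratios of the 20 spanned 80.8-fold, from 0.178 for Defb19 to 14.4 for Cst12.

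The most abundant genes of that list were high in both populations. Cyp26b1, a retinoic acid-degrading enzyme of the fetal and neonatal testis, rose from 566 ± 79.2 to 956 ± 38.1 FPKM, and the defensin gene Defb19 fell from 507 ± 30.2 to 90.3 ± 2.53 FPKM. Ctsl, the cathepsin L gene, fell slightly from 227 ± 2.21 to 194 ± 4.49 FPKM, while the dopamine receptor gene Drd4 rose from 35.1 ± 2.93 to 196 ± 11.5 FPKM. Sox9, the transcription factor that sets Sertoli cell fate, was at 10.3 and 9.08 FPKM in laminin-negative and at 8.81 and 6.61 FPKM in laminin-positive libraries (log2 difference −0.31, SE 0.128, limma adjusted p = 0.0674), and was not called. The genes of both directions in the next sentences were named after their values were seen.

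Anti-Müllerian hormone (Amh), a secreted hormone of immature Sertoli cells, was at 0.757 and 0.664 FPKM in laminin-negative and at 6.99 and 4.79 FPKM in laminin-positive libraries (8.29-fold). Dhh, the desert hedgehog ligand of Sertoli cells, was at 0.311 and 0.213 against 3.27 and 2.59 FPKM (11.2-fold). Dmrt1, a transcription factor of Sertoli and germ cells, was at 1.19 and 1.03 against 5.87 and 5.34 FPKM (5.03-fold). All were called higher, but Amh and Dhh were under 1 FPKM in both laminin-negative libraries and passed the filter through the laminin-positive ones. In the other direction, the orphan nuclear receptor gene Nr0b1 fell from 5.99 ± 0.886 to 2.94 ± 0.662 FPKM and the protease inhibitor gene Serpina5 from 23.96 ± 0.0353 to 4.63 ± 0.681 FPKM. Espn, Tubb3 and Trf also fell, with ratios of 0.470, 0.483 and 0.643, as did Vnn1 at 0.829.

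Genes that Sertoli cells share with interstitial cells were also split. Of 7 tested, 3 were called higher, among them Wt1 and Amhr2, 2 were lower (Nr5a1 and Kitl) and 2 were neither (Gata4 and Inha). Among all tested rows, 26.6% were called higher and 26.3% lower. Kitl, the ligand of KIT, fell from 35.4 ± 1.91 to 7.27 ± 0.141 FPKM. Gata4 was at 101 ± 1.97 and 95.96 ± 1.82 FPKM.

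Markers of other cell types also differed between the populations, some higher and some lower with laminin staining. Their part in the result was not tested. The summed FPKM of 14 germ cell genes was 16.7 and 19.8 in laminin-negative and 39.1 and 39.9 in laminin-positive libraries, with 9 of 11 tested genes called higher and 2, Tex101 and Dmc1, not called. Of 12 macrophage genes 11 were found, which summed to 10.01 and 5.15 against 63.3 and 54.9 FPKM, with 9 of 9 tested called higher. Of these 9, 6 were under 1 FPKM in both laminin-negative libraries and passed the filter through the laminin-positive ones, as did 3 of the 11 tested germ cell genes, so these counts are not read further. The 5 Leydig cell genes summed to 4715 and 4471 against 169 and 124 FPKM. The 5 smooth muscle and peritubular myoid genes summed to 135 and 124 against 5293 and 5349 FPKM. The interstitial identity of the sorted cells was not tested with these sums. Endothelial genes gave 1 higher (Emcn) and 2 lower (Cdh5 and Tek) of 3 tested, and no erythroid gene passed the filter. Cdh5, the most abundant, fell from 169 ± 5.58 to 9.57 ± 0.453 FPKM, whereas Pecam1, Kdr, Tie1 and Cldn5 stayed under the filter. Of all 7 endothelial genes, 5 had both laminin-positive libraries above both laminin-negative ones and 2 had both below. Among all tested rows, which hold only 3 of these 7 genes, 39.4% lay above in this way and 37.8% below. For the calls in these lists, the shares over all tested rows were 26.6% higher and 26.3% lower. None of the germ cell, macrophage, Leydig or myoid genes found was at 0 in every library.

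**Figure D4:**
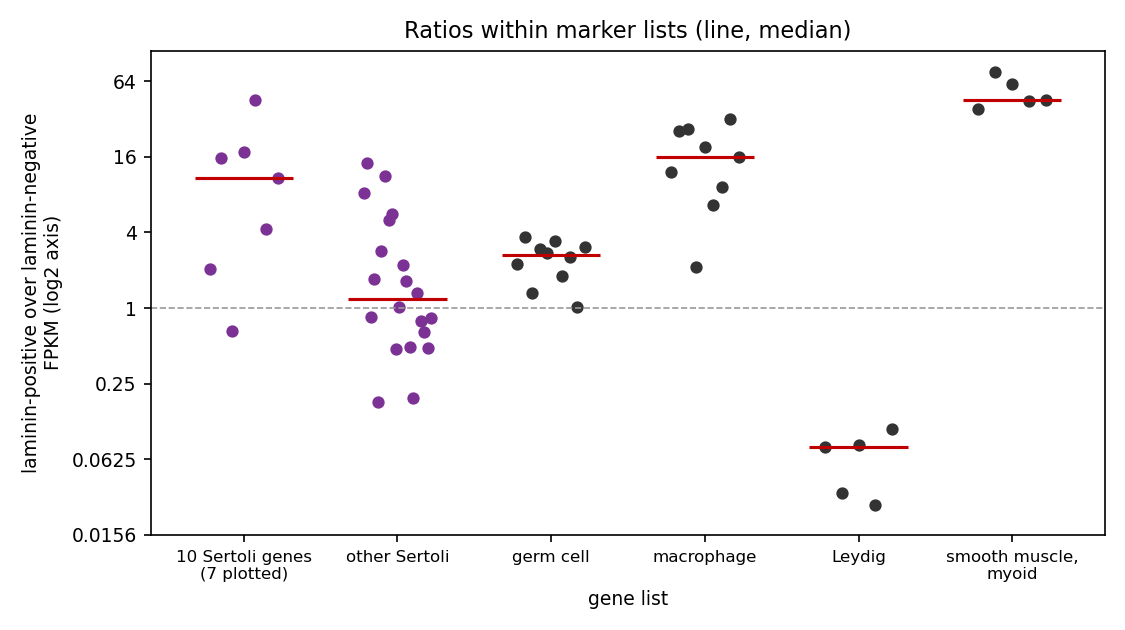
Ratios of laminin-positive to laminin-negative FPKM (log2 axis) for genes with a mean of at least 1 FPKM over the 4 libraries, by marker list, with the median as a line. The 7 plotted genes of the 10 run from 0.661 to 45.4, the 10 germ cell genes from 1.01 to 3.70, and the 5 smooth muscle genes from 38.2 to 75.2.

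The width of the ratios differed between the lists, as a description without a test since the lists differ in size and choice. The highest ratio exceeded the lowest 68.8-fold over 7 of the 10 Sertoli cell genes, 3.65-fold over 10 germ cell genes and 14.9-fold over 9 macrophage genes. It did so 4.01-fold over the 5 Leydig cell genes and 1.97-fold over the 5 smooth muscle genes. Among the other lists it was 80.8-fold over 20 other Sertoli cell genes, 49.9-fold over 3 endothelial genes, 20.5-fold over 5 tight junction genes and 18.4-fold over 7 genes shared with interstitial cells. Of the 7 Sertoli cell genes, 3 were under 1 FPKM in both laminin-negative libraries. So were 6 of the macrophage, 2 of the germ cell, 2 of the other Sertoli, 1 of the tight junction and 1 of the endothelial genes. None of the Leydig, smooth muscle or shared genes was. Over the 3 of the 10 genes with at least 1 FPKM in every library, the ratios differed by 2.68 on the log2 scale. Over all 12072 rows with a mean of at least 1 FPKM the median log2 ratio was 0.01.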

How the data were processed

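RNA was sequenced from 2 laminin-negative and 2 laminin-positive samples. The authors deposited FPKM values per library, per the file headers, and TopHat2 2.1.1 and Cufflinks 2.2.1 are listed, with no role, per the submitters' processing notes. The sources used here give no build, annotation, scaling between libraries or number of fragments, so depth and counting error are unknown. FPKM summed to between 491475 and 548986 per library.

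Rows with at least 1 FPKM in at least 2 libraries (12348) were compared on log2(FPKM + 1) with limma 3.58.1 (R 4.3.3), two-sided, using empirical Bayes moderation with an intensity trend and no replicate block. P-values were adjusted over all tested rows by the Benjamini-Hochberg method, threshold 0.05. The test script was tested on simulated data. Ratios of means used no pseudocount. Members and lists were chosen with earlier results of these data known. Named genes were the 10 genes, up to 4 of the most abundant genes of each other list, those needed to explain small counts, and 5 nearest profiles, and exceptions are marked. Transcripts were compared with BLAST+ 2.17.0. Alternatives changed the pseudocount, filter, scaling, variance model, block and libraries. A result on a single gene is not reported here.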

Additional observations from a re-analysis of the deposited data

How the results depend on the processing

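Depth is unknown, and ratios of genes under 1 FPKM, which include 6 of the 10 laminin-negative means, are the least certain. The 8 tested genes had 111 alternative values, of which 108 kept direction and call, 0 reversed, and 3 lost the call (Cldn11, Tsx and Clu), each without variance shared across genes. That setting rests on 2 residual degrees of freedom and left 5 of the 8 genes called, 6 of the other Sertoli cell genes against 17, and 2557 of all rows against 6533. With equal FPKM sums the median log2 difference of all rows became 0.115 instead of 0.00919, and all rows split into 4255 higher and 2382 lower against 3288 and 3245. The spread of the log2 ratios, 6.10 over 7 genes, was 2.68 over the 3 genes with at least 1 FPKM in every library, 5.41 with a pseudocount of 0.1 and 3.69 with a pseudocount of 1, which shrinks the ratios of low genes. Leaving out each library in turn gave 5.59 to 6.57 for the spread. When genes were called in these refits, a lone library was assumed to vary like the other population. These refits and most other alternatives kept the filter, which 5 of the 8 tested genes reached with the laminin-positive libraries. The 108 kept calls are therefore given as a description. Same-numbered libraries did not deviate together (r = 0.00809 across 12348 genes, which are not independent). With the replicate block 8 of the 8 genes, 18 other Sertoli cell genes and 6719 rows were called.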

Other observations

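Outside all lists, the 5 tested genes whose centred log2(FPKM + 1) values over the 4 libraries lay closest to the median profile of the 8 tested Sertoli cell genes, by Euclidean distance, were 4930550L24Rik, Aplp1, Nap1l5, Uchl1 and Ldb3. Their distances ran from 0.0229 to 0.0718. Uchl1, a ubiquitin hydrolase gene, had means of 6.12 FPKM without and 22.7 FPKM with laminin staining, and Ldb3, a gene of muscle Z-discs, averaged 0.299 and 2.98 FPKM. With 2 populations of 2 libraries, such likeness reflects little more than a similar log2 difference.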
